A study of Homo sapiens with 12 samples.

Results

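The 10 genes described here move iron into, through and out of a human cell: TFRC, STEAP3 and SLC11A2 take it up, FTH1, FTL and NCOA4 store it and release it from store, SLC40A1 and HMOX1 release it from the cell and from haem, and IREB2 and ACO1 encode the iron regulatory proteins. They were chosen by symbol, each matched to the Ensembl identifier of 1 row in a deposited table of 39266 genes, and all 10 were among the 20820 genes with enough counts to test. The cells were PC9-OR, a derivative of the human non-small cell lung cancer line PC9, whose parent carries an activating EGFR mutation. The series title concerns resistance to osimertinib, an inhibitor of mutant EGFR. Messenger RNA was sequenced from cells given DAC+OSI (dauricine, an alkaloid from moonseed, with osimertinib), DAC (dauricine), OSI (osimertinib) or neither (Control), with 3 libraries in each group. No dose or time is given in the labels used here, and all libraries come from 1 resistant line.

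Iron bound to transferrin enters a cell on the transferrin receptor TFRC. In the endosome STEAP3 reduces the iron and SLC11A2 (DMT1) carries it into the cytosol. Iron that is not used is held in ferritin, a shell of the heavy chain FTH1, which oxidises iron, and the light chain FTL, which helps to lay it down as mineral. NCOA4 carries ferritin to the lysosome, where the iron is set free again. HMOX1 splits haem and frees its iron, and SLC40A1 (ferroportin) is the exporter of iron from the cell. IREB2 (IRP2) and ACO1 (IRP1) bind hairpins called iron-responsive elements (IREs). Bound at the 5′ end of an mRNA they block translation, and bound at the 3′ end of TFRC mRNA they protect it from decay, so that low iron raises uptake and lowers storage. The labile iron that these genes set is a reactant in the lipid peroxidation of ferroptosis, the form of cell death that the series title names.

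The hairpin loop of the IRE was searched for in the untranslated ends of the 10 messages. The sequences below are 30 bases each, written 5′ to 3′ on the strand of the gene and read from GENCODE 29 transcripts on GRCh38. Capitals mark the bulged C and the loop CAGTGN, N being any base. The bases between them and those after the loop form the upper stem.
TFRC 3′ end, chr3:196050979-196051008, minus strand: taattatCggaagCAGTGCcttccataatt
TFRC 3′ end, chr3:196050575-196050604, minus strand: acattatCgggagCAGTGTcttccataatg
TFRC 3′ end, chr3:196050510-196050539, minus strand: tctgtatCggagaCAGTGAtctccatatgt
TFRC 3′ end, chr3:196050463-196050492, minus strand: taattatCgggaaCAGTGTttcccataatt
SLC11A2 3′ end, chr12:50988269-50988298, minus strand: tagccatCagagcCAGTGTgtttctatggt
FTH1 5′ end, chr11:61967574-61967603, minus strand: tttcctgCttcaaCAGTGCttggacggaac
FTL 5′ end, chr19:48965334-48965363, plus strand: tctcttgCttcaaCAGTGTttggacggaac
SLC40A1 5′ end, chr2:189580661-189580690, minus strand: ccaacttCagctaCAGTGTtagctaagttt
All 5 bases of the upper stem pair in the TFRC, FTH1, FTL and SLC40A1 hairpins, G-T pairs included, and 4 of 5 pair in SLC11A2. A stem with all 5 paired lies in the untranslated ends of 168 of 19684 genes (0.853%), and one with at least 4 paired in 1183 genes (6.01%). IREB2 and ACO1 have a match with 4 of 5 paired at the 3′ end of 1 transcript each, and STEAP3, NCOA4 and HMOX1 have none, which says only that these letters are not there. The matches of FTL and SLC40A1 likewise lie in 1 transcript each, those of TFRC in 3, of SLC11A2 in 5 and of FTH1 in 7. A match describes letters and does not show that a protein binds there. The counts measure mRNA, so translational control through these hairpins was not measured.

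Levels are in CPM, the counts of a gene per M (mega) counts of its library after TMM scaling, and differences are log2 fold changes with their standard error (SE) from the quasi-likelihood test of edgeR. An adjusted p under 0.05 made a call, with adjustment over all 20820 genes tested by the Benjamini-Hochberg method. Separate cultures are not mentioned in the labels, so p-values reflect the spread of 3 libraries that may be technical repeats. Totals ran from 24.9 to 66.9 M counts, the lowest being DAC+OSI 2. That library and Control 2 stood apart from their groups. Across 20443 genes, which are not independent replicates, how far a library lay above its group mean tracked the GC content of the longest transcript of a gene, at a Spearman rho of 0.57 for DAC+OSI 2 and 0.56 for Control 2, against -0.52 to -0.37 in the remaining 4 libraries of both groups and -0.09 to 0.06 in the DAC and OSI libraries. Deviations within a group cancel out for each gene, so the opposite sign in the remaining libraries is no separate observation. A 10-library fit without DAC+OSI 2 and Control 2 is given for single genes beside other values or among the dependences on processing. Those libraries were left out because they deviate, which by itself lowers the spread, so a smaller p in that fit is no independent support.

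The cells carried epithelial markers at high level, with KRT8 between 3772 and 8591 CPM and EPCAM between 91.9 and 182 CPM. The lung lineage factor NKX2-1 (at most 0.148 CPM) and the surfactant gene SFTPB (at most 0.0964 CPM) were at or near 0 in all libraries. Summed over their marker lists, 5 fibroblast genes ranged over 27.2 to 94.8 CPM in DAC+OSI, 10.4 to 11 CPM in DAC, 7.23 to 9.45 CPM in OSI and 10.9 to 22.3 CPM in Control. The 4 immune genes summed to 7.82 to 23 CPM in DAC+OSI, 8.68 to 10.2 in DAC, 2.70 to 3.38 in OSI and 6.01 to 8.09 in Control. The 3 endothelial genes summed to 12.4 to 28.4 CPM in DAC+OSI, 8.65 to 9.92 in DAC, 10.6 to 13.2 in OSI and 4.95 to 5.33 in Control. Their part in the results was not tested. In RNA from a whole culture, fewer cells of a type and less RNA per cell cannot be told apart.

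Against Control, more of the 10 genes were called higher than lower under each treatment. Of them, 7 were called higher and 0 lower in DAC+OSI against Control, where 28.1% of all genes tested were called (15.4% higher and 12.8% lower). Their median log2 fold change was 0.75, beside 0.03 over all genes tested. In a fit of those 6 libraries alone 4 were called higher, with FTH1, NCOA4 and HMOX1 lost, and 13.9% of all genes were called. In DAC against Control 6 were called higher and 0 lower, beside 9.43% of all genes called (5.33% higher and 4.11% lower), with a median of 0.69 beside 0.01. In OSI against Control 3 were called higher and 1 lower, beside 18.9% of all genes called (10.6% higher and 8.23% lower), with a median of 0.30 beside -0.01. The same 3 genes, TFRC, SLC11A2 and FTL, were called higher in all comparisons with Control, which share the Control libraries.

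**Figure D1:**
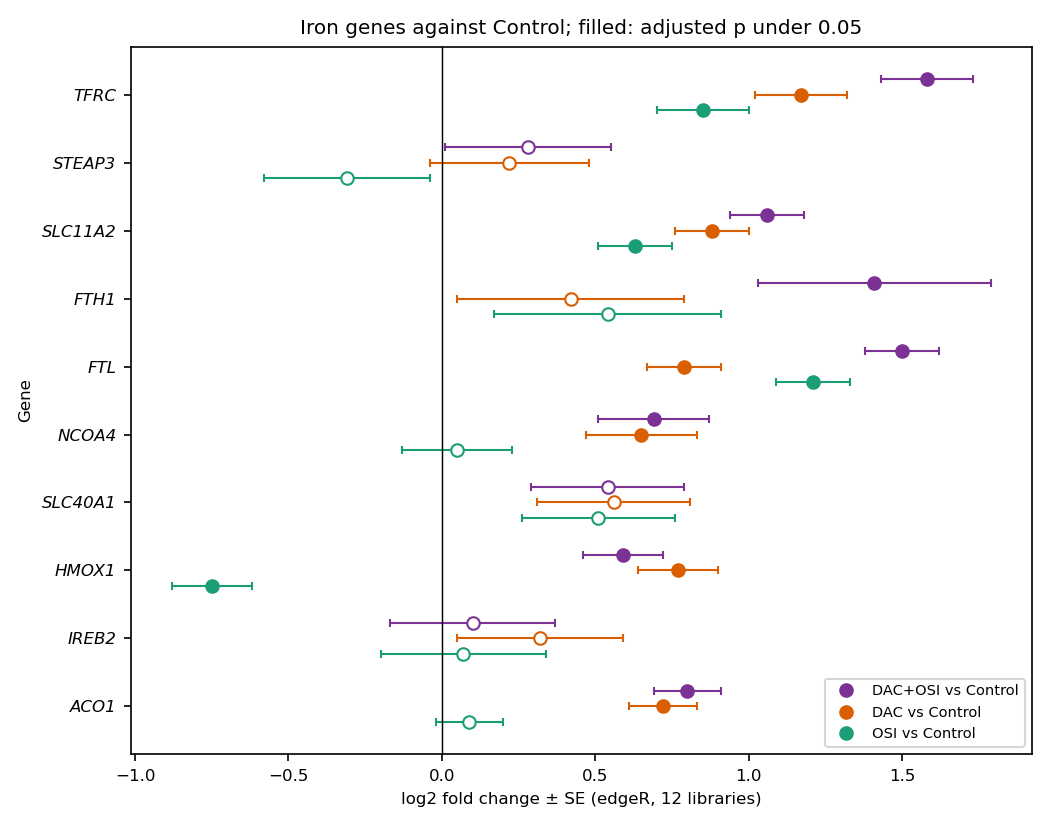
Log2 fold change of each of the 10 genes against Control with bars of ± SE, for DAC+OSI, DAC and OSI; filled points have an adjusted p under 0.05 (edgeR). TFRC, SLC11A2 and FTL are called higher in all 3 comparisons, and HMOX1 is higher in DAC+OSI and DAC and lower in OSI.

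TFRC and SLC11A2 were higher under every treatment. TFRC had 452, 309 and 438 CPM in the DAC+OSI libraries, 298, 276 and 329 CPM in DAC, 243, 243 and 239 CPM in OSI, and 150, 117 and 136 CPM in Control. Every treated library lay above every Control library, and only DAC+OSI and DAC overlapped among the treated groups. TFRC rose by a log2 fold change of 1.58 ± 0.15 (SE) in DAC+OSI (2.98-fold, adjusted p = 9.44e-06), by 1.17 ± 0.15 in DAC (adjusted p = 0.000521) and by 0.85 ± 0.15 in OSI (adjusted p = 0.00173), each against Control. It was also higher in DAC+OSI than in OSI, by 0.73 ± 0.15 (adjusted p = 0.00529). The difference of 0.41 ± 0.15 between DAC+OSI and DAC was not called (adjusted p = 0.104). In the 10-library fit that difference was 0.56 (adjusted p = 1.46e-05). The gene TFRC (ENSG00000072274) spans chr3:196027183-196082189 on the minus strand of GRCh38, in GENCODE 29 as for all gene positions here.

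**Figure D2:**
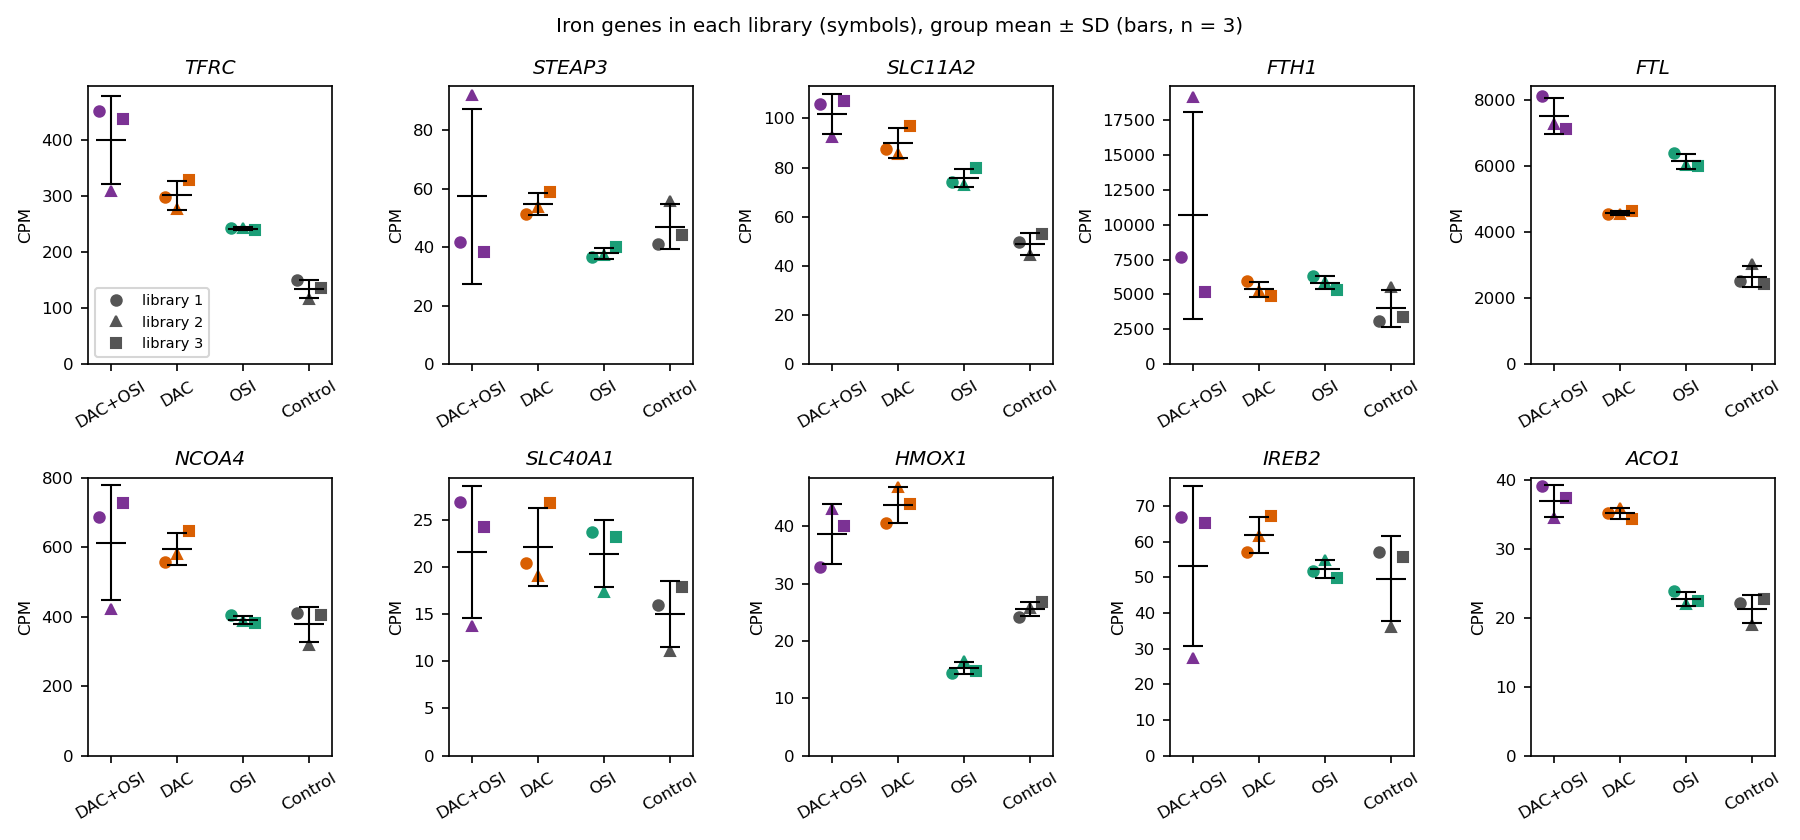
Levels of the 10 iron genes in each of 12 libraries, as CPM on linear axes from 0, with groups in the order DAC+OSI, DAC, OSI and Control; symbols are libraries, and bars are the group mean ± SD (n = 3). TFRC, SLC11A2 and FTL lie above Control in all treated libraries, and FTH1 in DAC+OSI 2 reaches 19140 CPM.

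SLC11A2, the carrier that moves iron out of the endosome, had 106, 92.6 and 107 CPM in DAC+OSI, 87.5, 85.7 and 97.1 CPM in DAC, 74.3, 73.0 and 79.9 CPM in OSI, and 49.6, 44.3 and 53.0 CPM in Control. Its groups stood in the same order as those of TFRC, with overlap between DAC+OSI and DAC alone. Against Control it rose by a log2 fold change of 1.06 ± 0.12 (SE) in DAC+OSI (adjusted p = 2.51e-05), by 0.88 ± 0.12 in DAC (adjusted p = 0.000551) and by 0.63 ± 0.12 in OSI (adjusted p = 0.00211). It was 0.43 ± 0.12 higher in DAC+OSI than in OSI (adjusted p = 0.0219). That last call held in 8 of 14 alternatives and was lost with no filter on low counts, with only the groups compared, and without DAC+OSI 1, DAC+OSI 3, OSI 1 or OSI 2 (adjusted p from 0.0577 to 0.137). The 10-library fit also called it higher in DAC+OSI than in DAC (0.24, adjusted p = 0.0197). Over the 12 libraries log2 CPM of SLC11A2 and TFRC had a Pearson r of 0.98, a description of libraries that share 4 treatments. The gene SLC11A2 (ENSG00000110911) spans chr12:50979401-51028566 on the minus strand.

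STEAP3, the endosomal reductase, had 41.9, 92.0 and 38.4 CPM in DAC+OSI, 51.5, 53.9 and 58.8 CPM in DAC, 36.5, 37.4 and 40.1 CPM in OSI, and 41.1, 56.0 and 44.2 CPM in Control. Library 2 was the highest in both DAC+OSI and Control, and the groups overlapped except that DAC lay above OSI and OSI below Control. No comparison was called with all libraries, and the 95% interval of the log2 fold change in DAC+OSI against Control ran from -0.29 to 0.85. Its direction in DAC+OSI against DAC depended on the library that stood apart, with a log2 fold change of 0.06 (adjusted p = 0.901) with it and -0.45 (adjusted p = 0.000306) in the 10-library fit. That fit also called it higher in DAC than in Control (0.36, adjusted p = 0.00235) and than in OSI (0.51, adjusted p = 8.46e-06). STEAP3 shares 500 exon bases with the antisense gene STEAP3-AS1, which had 0.0947 to 1.11 CPM, and the labels do not say whether reads kept their strand. The gene STEAP3 (ENSG00000115107) spans chr2:119223831-119265652 on the plus strand.

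Ferritin messages were the most abundant of the group. FTL averaged 8550 ± 625 CPM per kb of exon in DAC+OSI, 5210 ± 57.8 in DAC, 6990 ± 253 in OSI and 3020 ± 367 in Control (SD, n = 3 each). FTH1 averaged 5260 ± 3660 CPM per kb in DAC+OSI, 2640 ± 278 in DAC, 2880 ± 237 in OSI and 1970 ± 650 in Control. On the same scale NCOA4, the next of the 10, averaged between 92.8 and 150 CPM per kb, TFRC between 17 and 50.7, and the exporter SLC40A1 between 3.46 and 5.11.

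FTL had 8132, 7257 and 7120 CPM in DAC+OSI, 4551, 4548 and 4637 CPM in DAC, 6395, 6027 and 5996 CPM in OSI, and 2512, 3017 and 2419 CPM in Control. The 4 groups did not overlap, in the order DAC+OSI, OSI, DAC and Control from high to low, which puts OSI above DAC where TFRC and SLC11A2 had DAC above OSI. Against Control the light chain gene rose by a log2 fold change of 1.5 ± 0.12 (SE) in DAC+OSI (2.83-fold, adjusted p = 1.54e-06), by 0.79 ± 0.12 in DAC (adjusted p = 0.0011) and by 1.21 ± 0.12 in OSI (adjusted p = 1.61e-05). In DAC+OSI it was 0.71 ± 0.12 above DAC (adjusted p = 0.00193), the only one of the 10 genes called in that comparison, in which 10.6% of all genes tested were called. Its difference of 0.29 ± 0.11 between DAC+OSI and OSI was not called (adjusted p = 0.108), and in the 10-library fit it was called at 0.29 (adjusted p = 0.00422). DAC was below OSI by -0.42 ± 0.11 (adjusted p = 0.0201), a call held in 8 of 14 alternatives, with an adjusted p from 0.0553 to 0.0715 with no filter on low counts or without any 1 of the DAC libraries, OSI 1 or OSI 2. The gene FTL (ENSG00000087086) spans chr19:48965301-48966878 on the plus strand.

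FTH1 had 7669, 19140 and 5204 CPM in DAC+OSI, 5964, 5248 and 4851 CPM in DAC, 6299, 5877 and 5338 CPM in OSI, and 3105, 5521 and 3397 CPM in Control. DAC+OSI 2 had more than any other library, Control 2 was the highest of its group, and DAC+OSI 3 lay below Control 2, so all pairs of groups overlapped. FTH1 was called higher in DAC+OSI than in Control, by 1.41 ± 0.38 on the log2 scale (SE; adjusted p = 0.0134). Without DAC+OSI 2 that value was 0.65 (adjusted p = 0.0237), in the 10-library fit 0.98 (adjusted p = 8.78e-06), and the call was lost without Control 1 (1.24, adjusted p = 0.0663) or Control 3 (1.31, adjusted p = 0.0565). Over all 15 alternatives the adjusted p ran from 5.88e-14 to 0.0996. With all libraries FTH1 was not called in DAC (0.42 ± 0.37, adjusted p = 0.541) or OSI (0.54 ± 0.37, adjusted p = 0.356), and in the 10-library fit it was called in DAC (0.72, adjusted p = 0.000263) and in OSI (0.86, adjusted p = 1.68e-05). The gene FTH1 (ENSG00000167996) spans chr11:61959718-61967660 on the minus strand.

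The deviation of FTH1 from its group mean on the log2 scale was 1.07 in DAC+OSI 2, -0.25 in DAC+OSI 1 and -0.81 in DAC+OSI 3, and 0.51 in Control 2. Its GC content is 50.12%, at percentile 53.7 of the genes tested, and that of FTL is 56.26%. FTL deviated by -0.05 in DAC+OSI 2 and 0.19 in Control 2. The part of GC content in these deviations was not tested. The ratio of FTH1 to FTL in CPM per kb was 0.408, 1.14 and 0.316 in DAC+OSI, 0.567, 0.499 and 0.452 in DAC, 0.426, 0.422 and 0.385 in OSI, and 0.535, 0.791 and 0.607 in Control. All 3 OSI libraries were below all 3 DAC and all 3 Control libraries in that ratio. The 20 FTH1 pseudogenes in the table together held 0.165 to 0.513% of the FTH1 count of a library, and the 7 FTL pseudogenes 0.0433 to 0.103% of the FTL count. The sources used here do not say how reads that match several places were assigned. The part of the pseudogenes in these levels was not tested. FTH1 also shares 1267 exon bases with BEST1 on the other strand, which had 1.20 to 3.41 CPM.

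**Figure D3:**
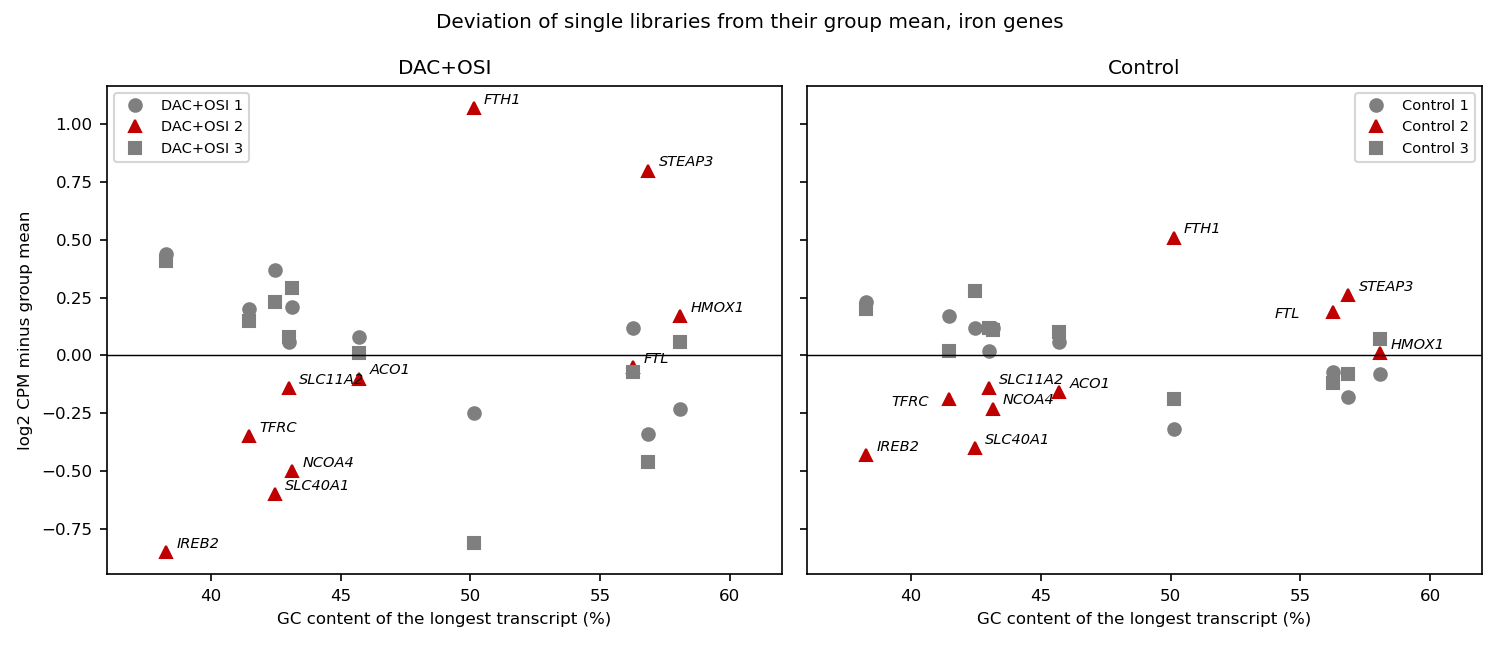
Deviation of each of the 10 genes from its group mean (log2 CPM) against the GC content of its longest transcript in percent, for the libraries of DAC+OSI on the left and Control on the right. In library 2 of both groups IREB2, SLC40A1 and NCOA4 lie low, and STEAP3 and FTH1 lie high, with FTH1 at 1.07 in DAC+OSI 2.

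NCOA4, the cargo receptor that takes ferritin to the lysosome, had 689, 423 and 727 CPM in DAC+OSI, 559, 581 and 648 CPM in DAC, 405, 388 and 381 CPM in OSI, and 410, 320 and 406 CPM in Control. Both groups given dauricine lay above both groups without it, and OSI and Control overlapped. Its log2 fold change was 0.69 ± 0.18 (SE) in DAC+OSI against Control (adjusted p = 0.0118), 0.65 ± 0.18 in DAC against Control (adjusted p = 0.0392), 0.65 ± 0.18 in DAC+OSI against OSI (adjusted p = 0.0264) and 0.61 ± 0.18 in DAC against OSI (adjusted p = 0.0308). In OSI against Control it was 0.05 ± 0.18 (adjusted p = 0.899), with a 95% interval from -0.34 to 0.44. The call in DAC against Control was lost without any 1 library of either group (adjusted p from 0.0731 to 0.16), and that in DAC against OSI likewise (0.0612 to 0.108). The call in DAC+OSI against OSI was lost with only the groups compared and without DAC+OSI 1, DAC+OSI 3 or any 1 of the OSI libraries (0.0696 to 0.112). In the 10-library fit the value was 0.83 (adjusted p = 2.38e-08). The gene NCOA4 (ENSG00000266412) spans chr10:46005088-46030714 on the minus strand.

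HMOX1, the haem oxygenase that frees iron from haem, had 32.8, 43.0 and 40.0 CPM in DAC+OSI, 40.5, 46.8 and 43.8 CPM in DAC, 14.4, 16.4 and 14.8 CPM in OSI, and 24.2, 25.7 and 26.7 CPM in Control. Dauricine groups were highest, Control was in between and OSI lowest, with overlap between DAC+OSI and DAC alone. HMOX1 was the only one of the 10 genes called lower in any comparison with Control: it fell by a log2 fold change of 0.75 ± 0.13 (SE) in OSI (adjusted p = 0.00141). It rose by 0.77 ± 0.13 in DAC (adjusted p = 0.00257) and by 0.59 ± 0.13 in DAC+OSI (adjusted p = 0.00404). Dauricine on top of osimertinib gave 1.34 ± 0.13 (DAC+OSI against OSI, adjusted p = 1.42e-05), or 2.53-fold, the largest difference of the 10 genes in that comparison. In DAC+OSI against DAC the value was -0.18 ± 0.13 (adjusted p = 0.399). The gene HMOX1 (ENSG00000100292) spans chr22:35380361-35394214 on the plus strand.

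SLC40A1, the iron exporter, had 26.9, 13.7 and 24.3 CPM in DAC+OSI, 20.4, 19.1 and 26.8 CPM in DAC, 23.7, 17.3 and 23.2 CPM in OSI, and 16.0, 11.1 and 17.9 CPM in Control. Library 2 was the lowest of every group, and only DAC lay wholly above Control. Its log2 fold change against Control was 0.54 ± 0.25 (SE) in DAC+OSI (adjusted p = 0.134), 0.56 ± 0.25 in DAC (adjusted p = 0.2) and 0.51 ± 0.25 in OSI (adjusted p = 0.189), none of them called. With the replicate number as a block it was called in DAC+OSI against Control (0.52, adjusted p = 0.025, and 0.47, adjusted p = 0.0254, in a fit of those 6 libraries alone). That pair of groups alone had equal numbers that deviated together, which does not establish pairing. The 10-library fit called SLC40A1 in DAC+OSI (0.59, adjusted p = 0.00357), in DAC (0.38, adjusted p = 0.049) and in OSI (0.35, adjusted p = 0.0485). The gene SLC40A1 (ENSG00000138449) spans chr2:189560579-189583758 on the minus strand.

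Of the regulators, ACO1 was called with all libraries and IREB2 was not, and the difference between the genes was not tested. ACO1, the iron-sulfur enzyme that becomes IRP1 when its cluster is lost, had 39.2, 34.5 and 37.4 CPM in DAC+OSI, 35.2, 36 and 34.4 CPM in DAC, 23.9, 22 and 22.4 CPM in OSI, and 22.2, 19 and 22.8 CPM in Control. As for NCOA4, the dauricine groups overlapped each other and lay above OSI and Control, which also overlapped. ACO1 rose by a log2 fold change of 0.80 ± 0.11 (SE) in DAC+OSI against Control (adjusted p = 0.000222), by 0.72 ± 0.11 in DAC against Control (adjusted p = 0.00195), by 0.70 ± 0.11 in DAC+OSI against OSI (adjusted p = 0.000988) and by 0.63 ± 0.11 in DAC against OSI (adjusted p = 0.0019). These calls held in every alternative run, with an adjusted p of at most 0.0207. In OSI against Control the value was 0.09 ± 0.11 (adjusted p = 0.636), with a 95% interval from -0.15 to 0.34. The gene ACO1 (ENSG00000122729) spans chr9:32384603-32454769 on the plus strand.

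IREB2, whose protein is degraded when iron is plentiful, had 66.9, 27.3 and 65.3 CPM in DAC+OSI, 57.0, 61.5 and 67.2 CPM in DAC, 51.9, 54.9 and 49.9 CPM in OSI, and 57.1, 36 and 55.8 CPM in Control. Library 2 was far below the others in DAC+OSI and Control, by -0.85 and -0.43 from the group mean of log2 CPM, and IREB2 has the lowest GC content of the 10 genes at 38.28%. It was called in no comparison with all libraries, and its interval in DAC+OSI against Control ran from -0.49 to 0.69. In the 10-library fit it was called higher in DAC+OSI against Control (0.22, adjusted p = 0.0379), in DAC+OSI against OSI (0.32, adjusted p = 0.0021) and in DAC against OSI (0.23, adjusted p = 0.00963). The gene IREB2 (ENSG00000136381) spans chr15:78437431-78501456 on the plus strand.

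When dauricine was added to osimertinib (DAC+OSI against OSI), 5 of the 10 genes were called higher and 0 lower, beside 17.0% of all genes called (9.01% higher and 7.96% lower): TFRC, SLC11A2, NCOA4, HMOX1 and ACO1. The number of the 10 called higher was 3 without DAC+OSI 1, OSI 1 or OSI 2. Without DAC+OSI 3, SLC11A2 and NCOA4 also lost their calls. When osimertinib was added to dauricine (DAC+OSI against DAC), FTL alone was called, beside 10.6% of all genes (6.1% higher and 4.52% lower), and the median over the 10 genes was 0.07 beside 0.01. DESeq2 called 3 higher there. The 10-library fit called 4 higher, which included NCOA4 (0.24, adjusted p = 0.0185), and HMOX1 (-0.27, adjusted p = 0.047) and STEAP3 lower, beside 24.6% of all genes called. Between the single compounds (DAC against OSI), HMOX1, ACO1 and NCOA4 were called higher and FTL lower, beside 20.7% of all genes called (10.2% higher and 10.5% lower). HMOX1 differed most, at 1.52 ± 0.13 on the log2 scale (SE; adjusted p = 6.52e-06). The 10-library fit also called TFRC (0.30, adjusted p = 0.00118), SLC11A2 (0.23, adjusted p = 0.00637), STEAP3 and IREB2 higher there, beside 49.4% of all genes called.

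The interaction asks whether dauricine has the same effect with osimertinib as without it, as the log2 fold change of DAC+OSI over OSI minus that of DAC over Control. None of the 10 genes was called in it by edgeR, beside 2.92% of all genes called (1.01% higher and 1.91% lower), and 3 had an unadjusted p under 0.05. HMOX1 was at 0.57 ± 0.18 (SE; adjusted p = 0.135), FTL at -0.50 ± 0.16 (adjusted p = 0.139) and SLC11A2 at -0.45 ± 0.16 (adjusted p = 0.196). Limma-voom called 0, and DESeq2 called SLC11A2 alone (-0.44, adjusted p = 0.0445). In the 10-library fit HMOX1 was called higher (0.45, adjusted p = 0.0234), and FTL (-0.60, adjusted p = 0.000517), FTH1 (-0.60, adjusted p = 0.0197) and SLC11A2 (-0.34, adjusted p = 0.0267) lower, beside 20.8% of all genes called. With all libraries FTH1 had the other sign, 0.45 ± 0.52 (adjusted p = 0.751). For NCOA4 and ACO1 the interaction was near 0, at -0.01 for NCOA4 (95% interval from -0.56 to 0.54) and -0.02 for ACO1 (from -0.37 to 0.33).

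**Figure D4:**
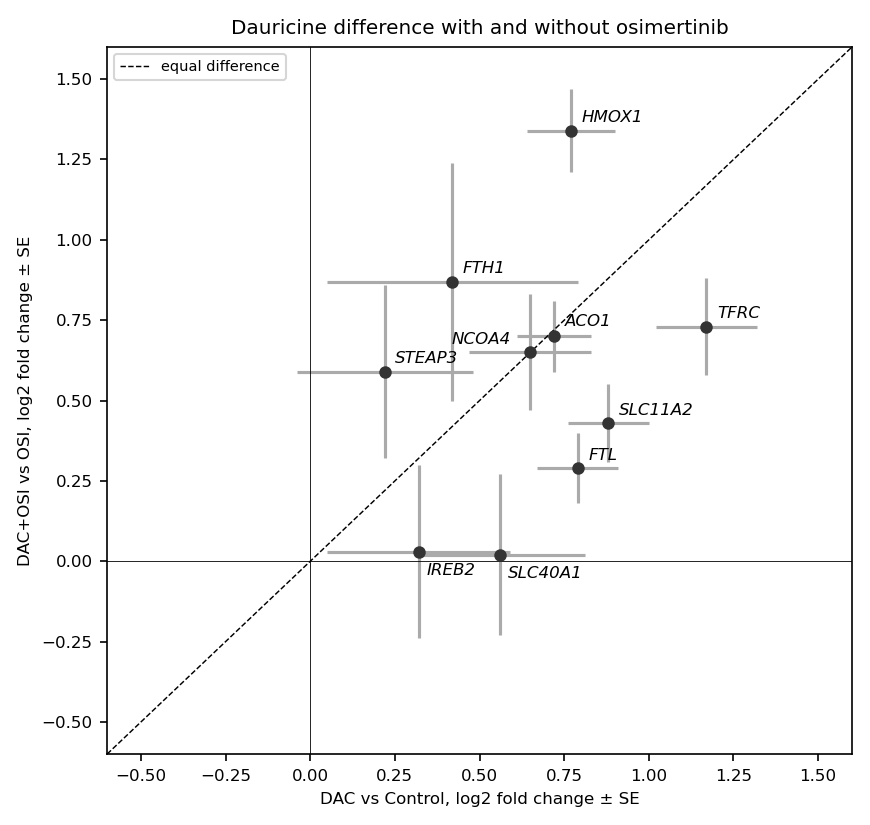
Log2 fold change with dauricine in the presence of osimertinib (DAC+OSI over OSI, vertical axis) against that without it (DAC over Control, horizontal axis) for the 10 genes, with bars of ± SE and the dashed line of equal difference. NCOA4 and ACO1 lie near the line, HMOX1 above it and FTL, TFRC and SLC11A2 below it, with no difference called by edgeR.

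Of 80 tested genes on 7 further lists, from transferrin partners to haem synthesis, 12 were called higher and 14 lower in DAC+OSI against Control (32.5%, beside 28.1% of all genes tested), with a median log2 fold change of 0.01 beside 0.03 over all genes. Uptake genes gave 6 higher and 4 lower of 15, release genes 3 and 2 of 9, regulators 2 and 2 of 10, mitochondrial iron-sulfur genes 0 and 4 of 22, haem synthesis 1 and 2 of 12, cytosolic iron-sulfur genes 0 and 0 of 8, and storage and chaperone genes 0 and 0 of 4. By list the median in DAC+OSI against Control was 0.81 for release, 0.45 for uptake, 0.09 for storage and chaperone genes and 0.06 for regulators. It was 0.02 for cytosolic iron-sulfur genes, 0.0 for haem synthesis and -0.2 for mitochondrial iron-sulfur genes. The release and uptake lists thus also lay above the median of all genes, as the 10 genes did. In DAC against Control 5 of the 80 were called higher and 7 lower (15%, beside 9.43% of all genes). In OSI against Control 9 were called higher and 9 lower (22.5%, beside 18.9%).

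In uptake, the ferrireductase gene CYBRD1 had 175, 101 and 169 CPM in DAC+OSI, 88.6, 86.9 and 102 CPM in DAC, 139, 138 and 143 CPM in OSI, and 43.7, 27.2 and 43.0 CPM in Control. All treated libraries were above Control, with log2 fold changes of 1.97 in DAC+OSI (adjusted p = 2.69e-05), 1.28 in DAC (adjusted p = 0.0026) and 1.88 in OSI (adjusted p = 7.14e-05). HFE, a partner of the transferrin receptor, was higher than in Control by 1.02 in DAC+OSI (adjusted p = 2.44e-05), 0.59 in DAC (adjusted p = 0.00542) and 0.94 in OSI (adjusted p = 8.54e-05). TFR2, the second transferrin receptor, fell by 1.24 in DAC+OSI (adjusted p = 0.000328), at 2.57 to 3.31 CPM against 5.84 to 8.22 CPM in Control. It was also called lower in DAC against Control (-0.93, adjusted p = 0.00706). TFR2 was not called in OSI against Control (-0.35, adjusted p = 0.213) or in DAC+OSI against DAC (-0.31, adjusted p = 0.321). STEAP1, a reductase related to STEAP3, had 3.55, 1.95 and 3.67 CPM in DAC+OSI and 12.1, 12.7 and 11 CPM in DAC. It averaged 2.65 CPM in OSI and 10.5 CPM in Control. Its log2 fold change was -1.93 in DAC+OSI against DAC (adjusted p = 0.00193) and -1.99 in OSI against Control (adjusted p = 0.000718). It was not called in DAC+OSI against OSI (0.24, adjusted p = 0.67) or in DAC against Control (0.18, adjusted p = 0.763).

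**Figure D5:**
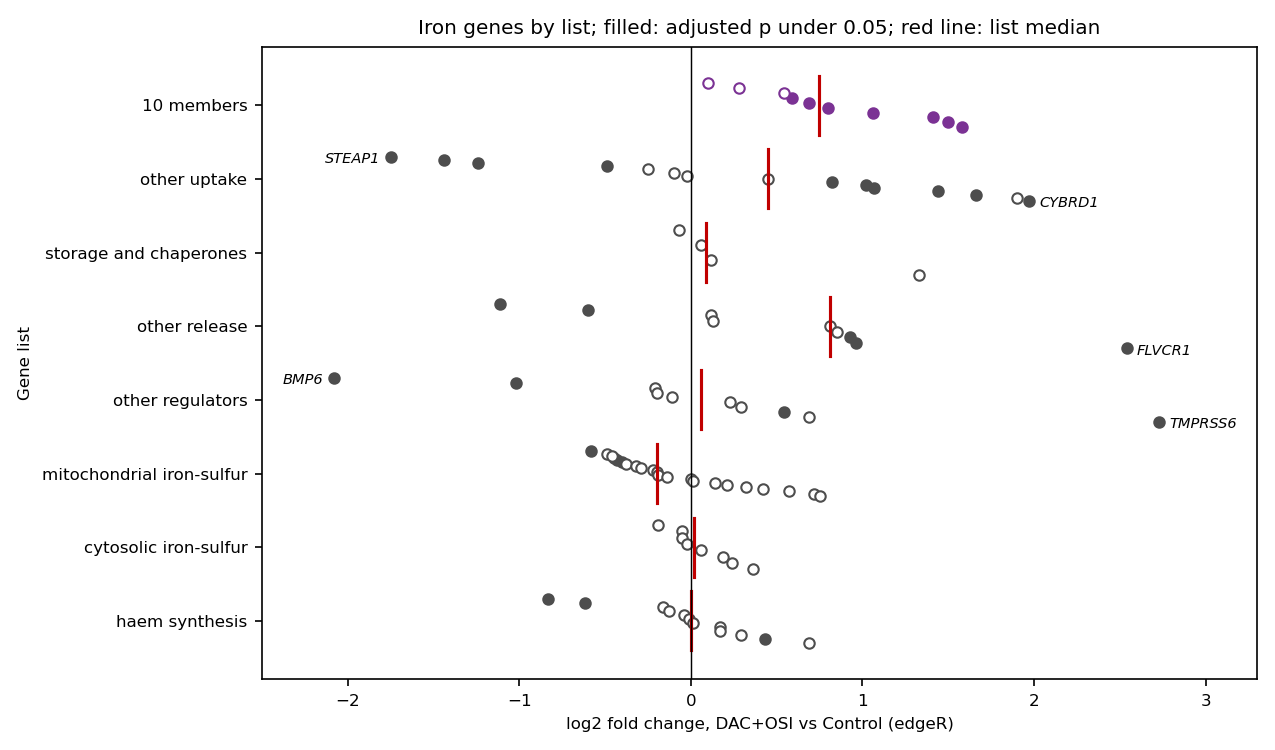
Log2 fold change in DAC+OSI against Control of the 10 genes and of the 80 tested genes on 7 other iron lists; filled points have an adjusted p under 0.05 and red lines are list medians. The 10 genes have a median of 0.75, other release genes 0.81, other uptake genes 0.45 and mitochondrial iron-sulfur genes -0.2. The remaining lists have medians from 0.0 to 0.09, and FLVCR1 and TMPRSS6 lie farthest to the right.

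FLVCR1, listed here with the release genes, had 49.6, 54.2 and 59.2 CPM in DAC+OSI, 29.4, 28.5 and 31.0 CPM in DAC, 11.4, 9.30 and 8.93 CPM in OSI, and 9.41, 9.26 and 9.39 CPM in Control. What it transports was not measured. The dauricine groups were apart from each other and from OSI and Control, which overlapped. It rose 5.81-fold in DAC+OSI (log2 fold change 2.54 ± 0.13, SE; adjusted p = 8.17e-08) and by 1.66 ± 0.13 in DAC (adjusted p = 6.81e-06), each against Control. Its interaction was called, at 0.80 ± 0.18 (adjusted p = 0.0288). The biliverdin reductase BLVRA, which acts after HMOX1 in haem breakdown, rose by 0.96 in DAC+OSI (adjusted p = 0.000196), by 0.48 in DAC (adjusted p = 0.0418) and by 0.48 in OSI (adjusted p = 0.0262).

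Of the 12 haem synthesis genes, ALAS1 and FECH were called lower and the mitochondrial transporter ABCB10 higher in DAC+OSI against Control, where 28.1% of all genes were called. ABCB10 was at 0.43 there on the log2 scale (adjusted p = 0.0351), and ALAD, the enzyme of the second step, was called in OSI against Control at 0.46 (adjusted p = 0.0145). ALAS1, which starts the pathway, had 111, 126 and 105 CPM in DAC+OSI, 139, 133 and 124 CPM in DAC, 129, 117 and 114 CPM in OSI, and 189, 238 and 181 CPM in Control. All treated libraries were below Control, and ALAS1 fell on the log2 scale by 0.83 in DAC+OSI (adjusted p = 0.000423), by 0.62 in DAC (adjusted p = 0.0103) and by 0.76 in OSI (adjusted p = 0.00132). FECH, which puts iron into the ring, had 36.9, 38.7 and 38.6 CPM in DAC+OSI, 43.4, 44.0 and 40.4 CPM in DAC, 60.6, 66.8 and 61.7 CPM in OSI, and 58.8, 58.4 and 57.7 CPM in Control. The dauricine groups lay below OSI and Control, and FECH fell by 0.62 in DAC+OSI (adjusted p = 0.000614) and by 0.45 in DAC (adjusted p = 0.0141). Of the mitochondrial genes, the cysteine desulfurase NFS1, which supplies sulfur to iron-sulfur clusters, fell by 0.45 in DAC+OSI (adjusted p = 0.00609) and by 0.38 in DAC (adjusted p = 0.04). The mitochondrial iron importer SLC25A37 fell by 0.58 in DAC+OSI (adjusted p = 0.00475) and by 0.65 in OSI (adjusted p = 0.0031).

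Among regulators of the liver hormone hepcidin, BMP6, a ligand that induces it, had 7.24, 8.95 and 6.41 CPM in DAC+OSI, 14.4, 15.9 and 15.4 CPM in DAC, 8.97, 9.70 and 9.66 CPM in OSI, and 29.3, 39.2 and 26.3 CPM in Control. All treated libraries were below Control, with a log2 fold change of -2.08 in DAC+OSI (adjusted p = 2.31e-06), -1.05 in DAC (adjusted p = 0.00176) and -1.74 in OSI (adjusted p = 1.72e-05). TMPRSS6, a protease that restrains hepcidin, had 38.4, 105 and 41.2 CPM in DAC+OSI, 14.6, 15 and 16.2 CPM in DAC, 44.0, 46.7 and 42.1 CPM in OSI, and 7.34, 11 and 9.57 CPM in Control, with DAC+OSI 2 far above the rest. It was called higher in DAC+OSI (2.73, adjusted p = 5.36e-05) and in OSI (2.25, adjusted p = 0.000366). HAMP, the gene of hepcidin itself, had 0 to 1.26 CPM over the libraries, too few counts to test.

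Likeness over the 12 libraries was measured as Pearson r of log2 CPM among 11148 genes of at least 5 CPM, as a description of libraries that share treatments and scaling. Closest to TFRC were OPTN (0.988), PCYOX1 (0.985) and ENSG00000260604 (0.985), and closest to SLC11A2 were BAG1 (0.992), TFRC (0.984) and TP53INP1 (0.983). For FTL they included CABLES2 (0.99) and SHMT1 (0.981), and for HMOX1 they were H2BC21 (0.978), LASTR (0.974) and TXNDC15 (0.971). Within the 10 genes r was 0.90 for NCOA4 and ACO1, 0.79 for HMOX1 and ACO1, 0.68 for FTH1 and FTL and 0.02 for HMOX1 and FTL.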

How the data were processed

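Raw read counts for each Ensembl gene were deposited, which the authors made with CASAVA, HISAT2 and featureCounts, per the submitters' processing notes. Their versions and settings, the genome build, the annotation and whether reads kept their strand were not given in the sources used here. Per the labels' protocols, mRNA was enriched with oligo(dT), fragmented, primed with random hexamers and amplified by PCR. The labels give 3 numbered libraries for each of DAC+OSI, DAC, OSI and Control. A table of gene names held 39178 of 39266 identifiers, and GENCODE 29 (GRCh38), the source of exon length, GC content and coordinates, held 37919. A count of 0 allows up to 3 counts, or 0.0449 to 0.12 CPM by library, a floor that covers counting error only, since PCR reads are not independent molecules.

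Genes with low counts were left out by filterByExpr (edgeR 4.0.16), libraries were scaled by TMM, and a quasi-likelihood model with 1 mean per group was fitted to all 12 libraries (biological coefficient of variation 20.9%). Tests were two-sided, adjusted over 20820 genes within each comparison. The SE is the log2 fold change divided by the square root of F. The 10 genes, the iron and marker lists and the 10-library fit were chosen with earlier results of these data known, and the DAC against OSI comparison was added later still. Named genes are the 10, up to 4 called genes of each list with the smallest adjusted p per comparison, of which a part is given, and the 3 genes most like TFRC, SLC11A2, FTL and HMOX1, of which 1 is not reported here. PCBP1 and MCOLN1 of those lists are left to the closing section.

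Alternatives were scaling by upper quartile or by relative log expression, no filter, DESeq2 1.42.0, limma-voom (limma 3.58.1, R 4.3.3), only the groups compared, the replicate block, the 10-library fit and leaving out each library. As a check on pairing, deviations of equal-numbered DAC+OSI and Control libraries correlated at 0.29, 0.43 and 0.20. Unequal numbers 1 and 3 of these groups correlated at 0.28 and 0.17, so those numbers are not told apart by this check. Pairing is therefore not established, and the fit with 1 mean per group did not pair libraries. The replicate number entered only as the block among the alternatives. For other groups the correlation was -0.06 to 0.08. Libraries of a group differed beyond counting noise. IRE matches used the pattern CNNNNNCAGTGN with at least 4 of 5 stem bases paired.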

Additional observations from a re-analysis of the deposited data

How the results depend on the processing

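Over the 10 genes and 7 comparisons, 914 values under an alternative kept direction and call, 35 lost the call, 41 gained it and 50 changed sign, each of the last from a value not called. TFRC, SLC11A2 and FTL kept their calls against Control in all alternatives run, as did HMOX1 and ACO1 in DAC+OSI against OSI.

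With only the groups compared, 4 of the 10 were called higher in DAC+OSI against Control, 3 in DAC+OSI against OSI and 7 in DAC against OSI, beside 13.9%, 8.46% and 48.0% of all genes called. The 10-library fit called 5 higher in OSI against Control, 4 higher and 2 lower in DAC+OSI against DAC, 7 higher in DAC against OSI, and 1 higher and 3 lower in the interaction, beside 43.6%, 24.6%, 49.4% and 20.8% of all genes called. With no filter 2 were higher in DAC+OSI against DAC and 0 lower in DAC against OSI, and DESeq2 gave 3 higher in the first and 1 lower in the interaction. With each library left out in turn, the number was 3 to 5 higher in DAC+OSI against OSI, 1 to 2 higher and 0 to 1 lower in DAC+OSI against DAC, and 0 to 1 lower in DAC against OSI.

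In the 10-library fit STEAP3 was at -0.09 in DAC+OSI against Control, -0.45 in DAC+OSI against DAC and -0.30 in the interaction, NCOA4 at -0.04 in OSI against Control and 0.29 in the interaction, and IREB2 at -0.10 in OSI against Control, 0.09 in DAC+OSI against DAC and 0.19 in the interaction. SLC40A1 was at 0.21 in DAC+OSI against DAC, and FTH1 at -0.60 and ACO1 at 0.08 in the interaction. The replicate block gave -0.01 for SLC40A1 and -0.05 for IREB2 in DAC+OSI against OSI, -0.01 for STEAP3 in DAC+OSI against DAC and, in a fit of those 6 libraries, -0.01 for IREB2 in DAC+OSI against Control. In groups whose equal numbers did not deviate together, the block called SLC40A1 in DAC (0.58, adjusted p = 0.0309) and in OSI (0.53, adjusted p = 0.0297) against Control. Among the 10 genes, in the comparisons run, the block changed no call but those of SLC40A1. Limma-voom gave -0.04 for IREB2 in DAC+OSI against OSI and -0.09 for STEAP3 in DAC+OSI against DAC, no filter -0.001 for SLC40A1 in DAC+OSI against OSI, and upper quartile scaling 0.003 for NCOA4 in the interaction. With each library left out in turn, STEAP3 ranged over -0.26 to 0.50 in DAC+OSI against Control, -0.45 to 0.29 in DAC+OSI against DAC and -0.14 to 0.60 in the interaction. IREB2 ranged over -0.09 to 0.38 and -0.11 to 0.18 in DAC+OSI and OSI against Control, -0.17 to 0.31 in DAC+OSI against OSI, -0.41 to 0.09 in DAC+OSI against DAC and -0.48 to 0.02 in the interaction. NCOA4 ranged over -0.06 to 0.10 in OSI against Control, -0.10 to 0.24 in DAC+OSI against DAC and -0.15 to 0.20 in the interaction. SLC40A1 ranged over -0.16 to 0.23 in DAC+OSI against OSI, -0.21 to 0.21 in DAC+OSI against DAC and -0.13 to 0.14 in DAC against OSI, and in the interaction FTH1 over -0.28 to 0.78 and ACO1 over -0.07 to 0.06. The cause of these changes was not tested.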

Other observations

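A pair of other iron genes, like FTH1, had their highest value in DAC+OSI 2, the library that stood apart in GC content. The iron chaperone PCBP1 had 8.06, 31.8 and 7.23 CPM in DAC+OSI, 7.03, 9.15 and 7.36 CPM in DAC, 4.56, 3.44 and 3.36 CPM in OSI, and 4.60, 9.16 and 4.68 CPM in Control. The lysosomal iron channel MCOLN1 had 23.7, 76.2 and 30.6 CPM in DAC+OSI, 16.4, 16.7 and 17.3 CPM in DAC, 15.3, 14 and 17.4 CPM in OSI, and 12.1, 15.8 and 13.1 CPM in Control. MCOLN1 lay above OSI in all DAC+OSI libraries, with a log2 fold change of 1.47 ± 0.33 (SE; edgeR adjusted p = 0.00833). The part of the library in these levels was not tested.

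Effects of dauricine that differed with and without osimertinib were called for 3 of the 80 other iron genes (3.75%, beside 2.92% of all genes tested). Besides FLVCR1 these were the lysosomal haem carrier SLC48A1 and the siderophore binder LCN2. SLC48A1 had 80.5, 74.4 and 79.0 CPM in DAC+OSI, 83.0, 76.6 and 74.7 CPM in DAC, 139, 124 and 138 CPM in OSI, and 79.5, 90.7 and 79.7 CPM in Control. Only OSI stood above the rest, and the interaction was -0.68 ± 0.15 (SE; edgeR adjusted p = 0.0304). LCN2 had 127, 118 and 133 CPM in DAC+OSI, 93.8, 99.3 and 86.5 CPM in DAC, 121, 112 and 135 CPM in OSI, and 151, 156 and 143 CPM in Control, with an interaction of 0.73 ± 0.16 (SE; edgeR adjusted p = 0.0274).

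Promoters of 8 of the 10 genes, from 250 bases before to 50 after the start in RefSeq (GRCh38.p14), were searched on both strands for TGACNNNGC, CACGTG and ACGTGC, which lie in 13.3%, 7.26% and 6.89% of 35116 promoters. The search gave 1 match, ACGTGC at -88 of TFRC. FTH1 and HMOX1 had no promoter in the set and were not searched, so nothing is known here of their motifs. For the genes searched, absence of the others says only that these letters are not in these windows.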
